A study of Homo sapiens with 10 samples.

Results

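Clone A2, 1 of 2 SAMHD1-knock-out (KO) clones in the series, was compared with wild-type (WT) cells in experiments 15 and 16. These are the only experiments that include clone A2. The comparison rests on 4 of the 10 libraries of the series, 2 of clone A2 and 2 of WT, picked by the group and experiment number in their labels. All libraries hold polyadenylated RNA of spheroids, cells grown as aggregates in suspension, from a line labelled T47D, a human breast cancer line. KO clones were made by CRISPR-Cas9 editing at exon 5 of SAMHD1, and the WT cells carry no edit. Clone A2 is a single clone, so what belongs to the loss of SAMHD1 and what belongs to this clone cannot be told apart within the comparison. The 2 libraries of clone A1 (KO) from the same experiments shared the fit and serve as a second reference. The labels give experiment numbers, and the study's methods describe the RNA samples as biological duplicates. Neither says how the cultures of a pair were separated, so the p-values below measure the spread between these libraries. Where no experiment is named, levels are those of experiments 15 and 16.

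SAMHD1 is a triphosphohydrolase that splits deoxynucleoside triphosphates (dNTPs) and so limits their pool in the cell. It restricts retroviruses in non-dividing cells and takes part in the repair of damaged and stalled replication forks. Its catalytic domain carries a histidine-aspartate pair, after which the protein is named. Exon 5, the edited exon (GRCh38 chr20:36930760-36930875, minus strand), codes for that pair and is shown here with the codons of the pair in capitals.

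SAMHD1 exon 5: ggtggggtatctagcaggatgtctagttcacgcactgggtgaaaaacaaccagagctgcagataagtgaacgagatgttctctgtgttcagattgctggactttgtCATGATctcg

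SAMHD1 RNA was lower in clone A2 than in WT, without being lost. It stood at 49.8 and 56.4 CPM (reads of a gene scaled to the size of its library) in the WT libraries of experiments 15 and 16 and at 23.6 and 20.2 CPM in clone A2 (log2 fold change −1.29, SE 0.09, edgeR adjusted p = 2.60e-07). Clone A1 had 6.44 and 6.15 CPM in the same experiments, so the level of clone A2 lay between those of WT and clone A1. In a fit of all 10 libraries, in which clone A1 had 22.5 and 22.99 CPM in experiments 10 and 11, the value was −1.30 and did not pass (edgeR adjusted p = 0.17). The counts cover the whole gene and do not measure the edit or the protein.

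The libraries went against part of their label. T47D is a luminal, estrogen receptor-positive line, yet ESR1, the gene of that receptor, stood at 0.403 and 0.312 CPM in WT and 0.292 and 0.371 CPM in clone A2, and the epithelial cadherin CDH1 at 1.76 and 1.15 CPM and 1.75 and 1.03 CPM. EPCAM, another epithelial surface gene, had 1.16 and 1.696 CPM in WT and 1.099 and 1.78 CPM in clone A2. VIM, a mesenchymal filament gene, had 1283 and 1216 CPM in WT and 1199.5 and 1175 CPM in clone A2, and CDH2, neural cadherin, 128 and 138 CPM and 134 and 140.4 CPM. Whether the sequenced cells are T47D was not tested, and the lists of luminal genes and estrogen receptor targets below are named for a profile whose defining genes ESR1, CDH1 and EPCAM stood under 2 CPM in both groups. Both groups shared this pattern. Of 18 markers of other cell types (basal epithelial, fibroblast, endothelial and immune genes), 6 were among the listed genes. None of the 6 differed between clone A2 and WT (edgeR and DESeq2, also none at an unadjusted p under 0.05). Total counts were between 40077369 and 51311482 per library. In bulk RNA, fewer cells of a type and less RNA per cell cannot be told apart.

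Of 13920 genes, 2948 differed between clone A2 and WT at an edgeR adjusted p under 0.05 (21.2% of the genes tested), of which 1357 were higher in clone A2 (9.75%) and 1591 were lower (11.4%). Most differences were small: 71.8% of the called genes lay within 0.5 on the log2 scale, and 72 genes rose and 127 fell by more than 1. Without the 318 genes of chromosome 22, 2689 of 13602 genes were called (19.8%), 1357 higher and 1332 lower. This near balance was not kept in every set of libraries: outside chromosome 22 there were 52 higher and 95 lower with all 10 libraries, 908 and 994 without clone A2 of experiment 15, and 835 and 941 without WT of experiment 16. The median log2 fold change was 0.0043 over all genes and 0.0089 outside chromosome 22. Clone A2 libraries had no overlap with WT for 4319 genes on the higher side (31.0% of all) and 4137 on the lower side (29.7%). On the log2 CPM scale, the root mean square distance was 0.234 between the 2 clone A2 libraries, 0.236 between those of WT and 0.363 to 0.389 between a clone A2 and a WT library. The number of calls depended on the libraries used: it was 308 (52 higher, 256 lower) when WT and clone A1 of experiments 10 and 11 joined the fit, and 1768 without clone A2 of experiment 16 or 1841 without WT of experiment 15. A replicate block of the experiment number raised it to 4511 for 6 libraries and 5597 for 4.

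**Figure D1:**
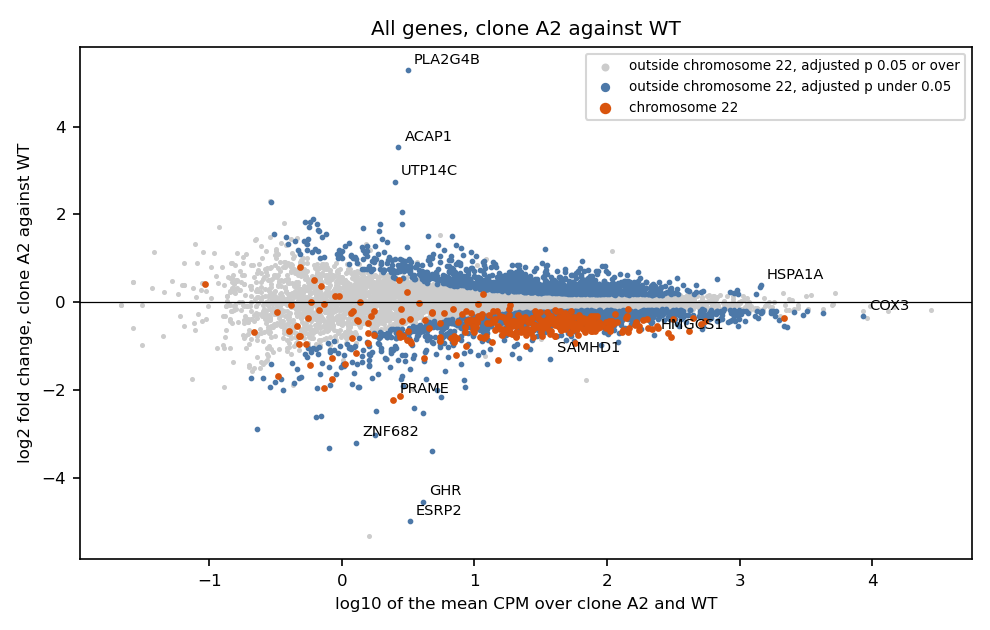
Log2 fold change of clone A2 against WT (vertical axis) over the mean abundance of each gene (horizontal axis, log10 of CPM) for 13920 genes. Genes called in either direction are coloured and chromosome 22 genes are marked apart, and the latter form a band near the median of −0.49 across the whole range of abundance.

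The gene that rose most was PLA2G4B, a cytosolic phospholipase A2, at chr15:41838847-41848143 (GRCh38). It had 0.176 and 0.136 CPM in WT, 0.183 and 0.161 CPM in clone A1 and 6.46 and 5.799 CPM in clone A2 (log2 fold change 5.28, SE 0.28, edgeR adjusted p = 2.79e-08). Clone A2 did not overlap the other libraries of experiments 15 and 16, but in experiments 10 and 11 WT had 0.1301 and 3.45 CPM and clone A1 9.16 and 0.196 CPM, so single libraries without the clone A2 genotype rose well above the WT level of experiments 15 and 16. The readthrough gene JMJD7-PLA2G4B overlaps this span, so its reads are uncertain. ACAP1, a GTPase-activating protein for Arf proteins (chr17:7336529-7351477), had 0.429 and 0.409 CPM in WT, 1.39 and 1.698 CPM in clone A1 and 5.898 and 3.94 CPM in clone A2 (log2 fold change 3.54, SE 0.28, edgeR adjusted p = 9.11e-07). WT of experiments 10 and 11 had 1.26 and 3.47 CPM for this gene, above the other WT libraries. UTP14C, a ribosomal RNA processing gene, followed (log2 fold change 2.75, SE 0.52, edgeR adjusted p = 0.0112). It lies within the span of ALG11, whose own value was −0.09, so its reads are uncertain, and its call was lost without WT of experiment 15 (adjusted p = 0.27) or experiment 16 (0.29).

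Of the other 9 genes with the largest rises, 5 were zinc finger genes of chromosome 19, taken up below. MACROD2, which removes mono-ADP-ribose from proteins, rose from 2.55 and 2.11 CPM in WT to 6.504 and 6.72 CPM in clone A2 (log2 fold change 1.51, SE 0.16, edgeR adjusted p = 9.69e-06), with 3.198 and 3.26 CPM in clone A1. BEST1, a chloride channel gene, rose from 3.35 and 3.74 CPM to 10.002 and 10.2 CPM (log2 fold change 1.502, SE 0.13, edgeR adjusted p = 2.40e-06). Its end overlaps that of FTH1, a far more abundant gene (424 and 399 CPM in WT, 432 and 416 CPM in clone A2) that did not pass the test. The glutamate receptor subunit GRIA4 rose by 1.43 on the log2 scale and SPRY3, a sprouty inhibitor of receptor tyrosine kinase signaling, by 1.38.

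ESRP2, an epithelial regulator of splicing at chr16:68229033-68236127, fell most, to near the floor of detection (log2 difference −5.94 in experiment 15 and −4.06 in experiment 16). It had 6.76 and 5.91 CPM in WT, 1.83 and 1.3998 CPM in clone A1 and 0.0673 and 0.312 CPM in clone A2 (log2 fold change −4.98, SE 0.33, edgeR adjusted p = 2.26e-07). GHR, the growth hormone receptor (chr5:42423439-42721878), had 7.36 and 8.34 CPM in WT, 1.44 and 1.24 CPM in clone A1 and 0.381 and 0.293 CPM in clone A2 (log2 fold change −4.55, SE 0.23, edgeR adjusted p = 2.41e-08). For both genes the 3 groups of experiments 15 and 16 were fully separated, with clone A1 between WT and clone A2. In experiments 10 and 11 clone A1 and WT overlapped, with clone A1 at 12.8 and 13.4 CPM of ESRP2 (WT 12.97 and 10.6 CPM) and 11.6 and 12.1 CPM of GHR (WT 12.99 and 10.2 CPM). TMEM132B, a transmembrane protein gene, had 8.67 and 8.79 CPM in WT, 2.01 and 2.52 CPM in clone A1 and 0.875 and 0.8005 CPM in clone A2 (log2 fold change −3.38, SE 0.19, edgeR adjusted p = 3.30e-08). In experiments 10 and 11 its order of WT and clone A1 was the opposite, at 21.2 and 18.9 CPM and 27.1 and 26.3 CPM.

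The X-linked NAP1L3, of the nucleosome assembly protein family, fell by 3.02 on the log2 scale, and the AMPA glutamate receptor subunit GRIA3 by 2.41. COL3A1, a fibrillar collagen chain, fell from 9.75 and 8.46 CPM in WT to 1.66 and 2.38 CPM (log2 fold change −2.16, SE 0.17, edgeR adjusted p = 1.13e-06), with 2.76 and 2.98 CPM in clone A1 (12.7 and 12.03 CPM in experiments 10 and 11). GNAO1, a G protein alpha subunit best known from neurons, fell by 2.00 (edgeR adjusted p = 8.54e-07). CPNE7, a copine, a family of proteins that bind membranes upon calcium, took another course. It had 7.59 and 6.49 CPM in WT, 12.6 and 11.2 CPM in clone A1 and 1.32 and 1.11 CPM in clone A2 (log2 fold change −2.53, SE 0.16, edgeR adjusted p = 2.26e-07), so in these experiments clone A1 was above WT and clone A2 below it. In experiments 10 and 11 WT had 5.704 and 6.405 CPM and clone A1 7.63 and 6.83 CPM, all above clone A2.

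**Figure D2:**
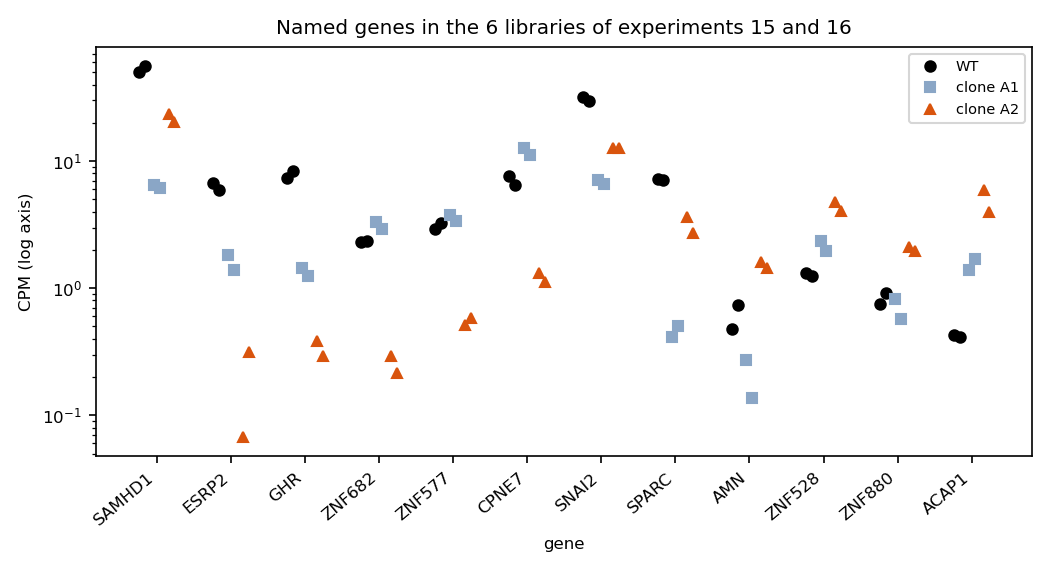
CPM of 12 named genes (log axis) in the WT, clone A1 and clone A2 libraries of experiments 15 and 16, 1 point per library. For CPNE7, ZNF682 and ZNF577 the clone A2 points lie below both other groups, while for SAMHD1, SNAI2 and SPARC they lie between WT and clone A1.

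By absolute amount, the gain was led by the near-identical pair of inducible HSP70 chaperone genes. HSPA1A had 1269.6 and 1237 CPM in WT and 1749.8 and 1528 CPM in clone A2 (log2 fold change 0.38, SE 0.07, edgeR adjusted p = 0.000914), and HSPA1B had 1259 and 1233 CPM and 1701 and 1474 CPM. Reads of these genes cannot be assigned to 1 copy with certainty. PRRC2B, a large RNA-binding protein, rose from 549 and 566 CPM to 791 and 818 CPM (log2 fold change 0.53, SE 0.06, edgeR adjusted p = 3.47e-05). SRRM2, a scaffold of nuclear speckles, rose by 0.29 and the glycolytic enzyme TPI1 by 0.18 (edgeR adjusted p = 0.037). The SRRM2 call was lost without clone A2 of experiment 15 (adjusted p = 0.051), and the TPI1 call when any 1 of the 4 libraries was left out (adjusted p 0.065 to 0.27).

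The largest losses in CPM were those of translation genes and of COX3, a mitochondrially encoded subunit of cytochrome c oxidase. RPL4, a protein of the large ribosomal subunit, fell from 2784 and 2653 CPM in WT to 1858 and 1823 CPM in clone A2 (log2 fold change −0.57, SE 0.06, edgeR adjusted p = 1.89e-05), and RPL13A from 2652 and 2487 CPM to 1797 and 1745 CPM (log2 fold change −0.54, SE 0.07, edgeR adjusted p = 3.72e-05). The elongation factor gene EEF2 fell by 0.26 on the log2 scale and RPS4X, of the small subunit, by 0.30. EEF2 lost its call without clone A2 of experiment 16 (adjusted p = 0.15), WT of experiment 15 (0.14) or WT of experiment 16 (0.080), and RPS4X without clone A2 of experiment 16 (0.060) or WT of experiment 15 (0.11). COX3 had 9771 and 9179 CPM in WT and 7910.2 and 7301 CPM in clone A2 (log2 fold change −0.32, SE 0.11, edgeR adjusted p = 0.0475), and its call did not hold without any 1 of the 4 libraries (adjusted p 0.074 to 0.26), with DESeq2 (0.22) or with limma (0.067). Mitochondrial genes took 10.04% and 9.05% of the counts in clone A2 and 10.7% and 9.92% in WT, and 1 of the 13 was called.

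Chromosome 22 stood apart from all others in clone A2. Of its 318 genes, 259 were lower than in WT (81.4%, against 11.4% of all genes) and none was higher (edgeR). At an unadjusted p under 0.05, 275 were lower and 1 was higher, DESeq2 called 255 lower and none higher, and 11 genes had a log2 fold change over 0. The median over the chromosome was −0.49, a level of 0.713 times WT, with quartiles of −0.64 and −0.38. In experiment 15 this median was −0.47 and in experiment 16 it was −0.50. Clone A2 lay below both WT libraries for 288 of the 318 genes and above both for 5. Chromosome 22 genes took 1.49% and 1.48% of the counts in clone A2 and 1.96% to 2.16% in the other 8 libraries.

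The shift ran along the whole chromosome. In steps of 5 Mb with 20 or more genes, the median log2 fold change went from −0.39 at 15 to 20 Mb to −0.58 at 45 to 50 Mb, and no step was near 0. Clone A1 did not share it: its chromosome 22 median against the same WT libraries was 0.01, with 12 genes higher and 7 lower by edgeR (6.44% and 6.74% of all genes passed for clone A1). Against clone A1 the median of clone A2 was −0.51, with 255 genes lower and none higher by edgeR (4.16% and 2.00% of all genes), 286 lower and 1 higher at an unadjusted p under 0.05, and 247 lower and none higher by DESeq2. Chromosome 22 holds 2.28% of the genes tested, and it gave 16.3% of the genes lower in clone A2 than in WT and 44.04% of those lower than in clone A1.

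**Figure D3:**
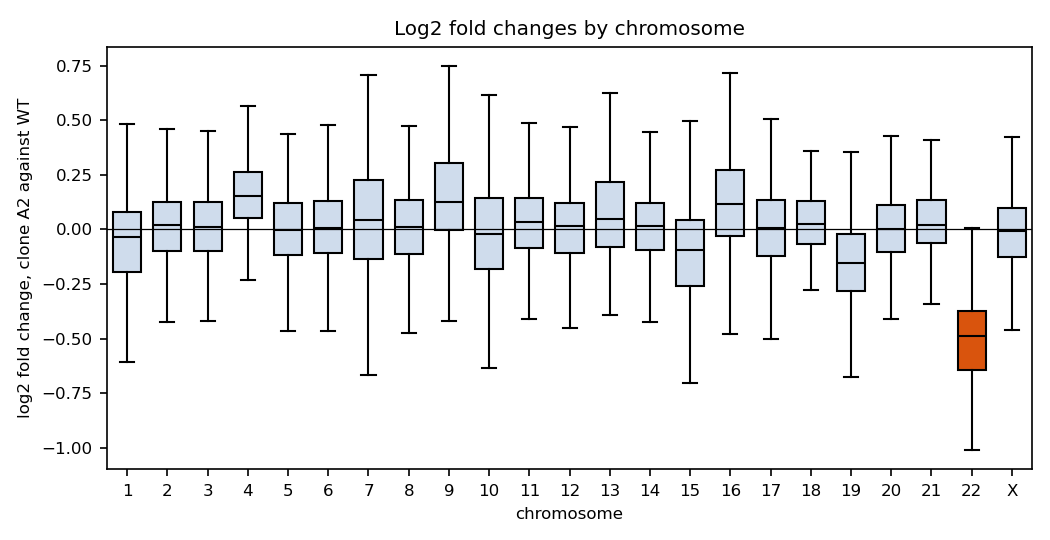
Log2 fold change of clone A2 against WT for the genes of each chromosome. Boxes span the quartiles with the median as a line, whiskers reach 1.5 times the interquartile range, and points beyond are not drawn; the box of chromosome 22 lies entirely below 0, with a median of −0.49.

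Genes of many functions lay in this block. EIF3L, a subunit of translation initiation factor 3 (chr22:37849419-37889407), had 387 and 382 CPM in WT, 358 and 359 CPM in clone A1 and 224 and 217 CPM in clone A2 (log2 fold change −0.80, SE 0.05, edgeR adjusted p = 2.26e-07). FAM118A had 75.8 and 75.2 CPM in WT, 76.5 and 72.4 CPM in clone A1 and 41.2 and 37.6 CPM in clone A2 (log2 fold change −0.94, SE 0.07, edgeR adjusted p = 3.98e-07). Both clone A2 libraries were below all other libraries of the fit for these genes. ST13, a cochaperone of HSP70, fell by 0.71 on the log2 scale, and ATXN10, the ataxin 10 gene, by 0.69.

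Among widely expressed genes, XRCC6, the Ku70 subunit of the end-joining repair complex, fell from 507 and 513 CPM in WT to 331 and 314 CPM (log2 fold change −0.66, SE 0.06, edgeR adjusted p = 2.84e-06). SMARCB1, a core subunit of the SWI/SNF chromatin remodelers, fell from 131 and 125 CPM to 84.6 and 77.4 CPM (log2 fold change −0.67, SE 0.06, edgeR adjusted p = 4.82e-06). The replicative helicase subunit MCM5 fell by 0.63, the RNA helicase DDX17 by 0.49, the integrated stress response factor ATF4 by 0.37 and the ribosomal protein gene RPL3 by 0.36. These sizes lie inside or close to the quartiles of the chromosome.

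A few chromosome 22 genes fell further. PRAME, an antigen of testis and tumors, had 4.23 and 3.801 CPM in WT, 4.55 and 3.81 CPM in clone A1 and 1.05 and 0.683 CPM in clone A2 (log2 fold change −2.22, SE 0.22, edgeR adjusted p = 6.97e-06). SCUBE1, a secreted and cell surface glycoprotein, had 4.39 and 4.503 CPM, 4.04 and 4.29 CPM and 1.17 and 0.859 CPM in the same order (log2 fold change −2.14, SE 0.20, edgeR adjusted p = 3.07e-06). The transcription factor TBX1, from the region deleted in DiGeorge syndrome, fell from 34.3 and 31.4 CPM to 18.6 and 14.2 CPM, and HMOX1, the inducible heme oxygenase, from 11.7 and 11.5 CPM to 5.65 and 5.97 CPM, each with a log2 fold change near −1 (−1.01 and −1.002). Of the genes over 0, RIBC2 had a value of 0.50 and the cytokine LIF of 0.23, and neither passed the test (edgeR adjusted p = 0.119 and 0.365).

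Regional shifts were present outside chromosome 22 too. Of 154 windows of 20 Mb with 20 or more genes, 26 had a median log2 fold change beyond 0.15, 13 higher and 13 lower, and 23 of them lay outside chromosome 22. These 23 held 20.2% of the genes outside chromosome 22 and 40.6% of the calls there. In the window of 60 to 80 Mb on chromosome 13 the median was 0.59 and 20 of 24 genes were called higher. At 120 to 140 Mb of chromosome 9 it was 0.30, with 109 of 219 genes higher and none lower, and at 20 to 40 Mb of chromosome 16 it was 0.25, with 67 of 135 higher and 1 lower. On the lower side, the window of 220 to 240 Mb on chromosome 1 had a median of −0.30, with 71 of 107 genes lower. Chromosome 4 as a whole had a median of 0.15 (119 of 521 genes higher and 8 lower) and chromosome 19 of −0.16 (45 of 970 higher and 270 lower), where 9.75% of all genes were higher and 11.4% lower.

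Unlike chromosome 22, the regions named were shifted in the same direction in clone A1 of experiments 15 and 16, some of them by less. In the chromosome 13 window the median level relative to WT was 0.52 and 0.59 in the libraries of clone A1 and 0.59 and 0.58 in those of clone A2. WT and clone A1 of experiments 10 and 11 lay on the other side, between −0.92 and −0.79. The chromosome 9 window stood at 0.20 and 0.17 in clone A1 and 0.33 and 0.24 in clone A2, with 15 genes higher and 2 lower in clone A2 than in clone A1 by edgeR. The chromosome 16 window stood at 0.18 and 0.16 in clone A1 and 0.30 and 0.21 in clone A2 (11 genes higher and none lower). In the chromosome 1 window clone A1 was at −0.29 and −0.23 and clone A2 at −0.34 and −0.29, with 8 genes lower and 1 higher. On chromosome 22 the same 4 libraries lay between −0.03 and 0.11, clone A1 of experiments 15 and 16 at 0.02 and 0.01, and clone A2 at −0.45 and −0.53. After the median of each window was removed from every library, 2019 genes were called for clone A2 against WT, 1978 of them outside chromosome 22. Copy number was not measured, and its part in these regional levels was not tested.

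**Figure D4:**
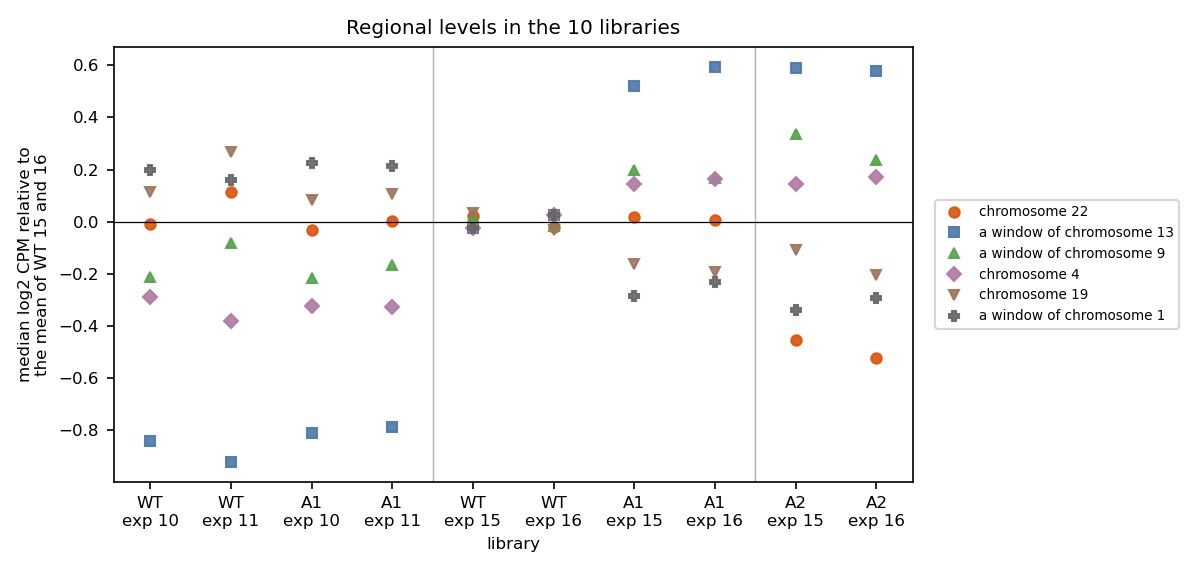
Median log2 CPM of the genes of 3 chromosomes and 3 windows of 20 Mb, relative to the mean of the WT libraries of experiments 15 and 16, in each of the 10 libraries. Chromosome 22 is near 0 in all libraries except clone A2 (−0.45 and −0.53), whereas the chromosome 13 window is high in clones A1 and A2 of experiments 15 and 16 and low in experiments 10 and 11.

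Genes of sterol and fatty acid synthesis were lower in clone A2 than in both references. Cells make cholesterol from acetyl-CoA through the mevalonate pathway, and the SREBP transcription factors, held back by INSIG proteins when sterol is plentiful, switch on its enzymes. Of 31 listed genes, 18 fell and none rose against WT (58.1% lower, against 11.4% of all genes), with a median log2 fold change of −0.28 (all genes 0.0043), and 20 fell and none rose against clone A1, with a median of −0.30. Clone A1 had a median of 0.04 against the same WT libraries. DESeq2 gave the same counts, and at an unadjusted p under 0.05 edgeR had 21 lower and none higher against WT, and 23 lower and 1 higher against clone A1. The clone A2 libraries were below both WT libraries for 25 of the 31, against 29.7% of all genes, and above both for 1.

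At the entry of the pathway, HMGCS1, HMG-CoA synthase, had 278 and 294 CPM in WT, 306 and 316 CPM in clone A1 and 164 and 176 CPM in clone A2 (log2 fold change −0.75, SE 0.06, edgeR adjusted p = 9.53e-07). Further along, IDI1, the isomerase of isopentenyl diphosphate, fell from 126 and 127 CPM to 75.5 and 78.9 CPM (log2 fold change −0.72, SE 0.06, edgeR adjusted p = 1.66e-06). SQLE, squalene epoxidase, fell from 148 and 155 CPM to 93.7 and 92.4 CPM (log2 fold change −0.71, SE 0.06, edgeR adjusted p = 2.02e-06). Clone A1 had 120.03 and 121 CPM for IDI1 and 136 and 143 CPM for SQLE, so for both genes clone A2 lay below WT and clone A1. CYP51A1, which demethylates lanosterol, fell by 0.61, and MSMO1, the next demethylation enzyme, by 0.53.

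INSIG1, which holds SREBP in the endoplasmic reticulum, had 184 and 185 CPM in WT, 231 and 239 CPM in clone A1 and 163 and 173 CPM in clone A2. It passed the test against clone A1 (log2 fold change −0.48, edgeR adjusted p = 6.53e-05) and not against WT (edgeR adjusted p = 0.107). FASN, fatty acid synthase, fell by 0.35 against WT, with a difference of −0.02 from clone A1 that did not pass (edgeR adjusted p = 0.93), and the call against WT was lost without clone A2 of experiment 16 (adjusted p = 0.081). In the fit with all 10 libraries 6 of the 31 genes were lower than in WT and 7 lower than in clone A1. Relative to WT of experiments 15 and 16, the median level of the list was 0.01 and −0.01 in WT and 0.01 and −0.06 in clone A1 of experiments 10 and 11, against −0.21 and −0.25 in clone A2. Single genes could differ from this, as MSMO1 had 60.5 and 48.2 CPM in those WT libraries and 97.98 and 103 CPM in WT of experiments 15 and 16.

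SREBF2, which codes for SREBP2, lies on chromosome 22 (chr22:41833105-41907305) and had 204 and 208 CPM in WT, 213 and 219.9 CPM in clone A1 and 142 and 143 CPM in clone A2 (log2 fold change −0.54, SE 0.06, edgeR adjusted p = 8.22e-06). That value is close to the chromosome 22 median, and after removal of window medians it was 0.03, while 17 of the 18 sterol genes that fell lie on other chromosomes. The 250 bases before its RefSeq start (GRCh38.p14 chr22:41832855-41833104, plus strand) are shown because they hold TCACNCCAC, a form of the sterol regulatory element, in capitals (N is any base).

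SREBF2 promoter: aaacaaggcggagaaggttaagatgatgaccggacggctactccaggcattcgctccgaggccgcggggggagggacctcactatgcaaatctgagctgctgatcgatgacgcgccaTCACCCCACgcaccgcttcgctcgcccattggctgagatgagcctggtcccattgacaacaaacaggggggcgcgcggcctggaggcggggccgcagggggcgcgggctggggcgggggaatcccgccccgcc

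The letters TCACNCCAC were found, on either strand, before 131 of the 11366 tested genes that have a RefSeq promoter (1.15%), and among 25 sterol genes with a promoter before SREBF2 alone.

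**Figure D5:**
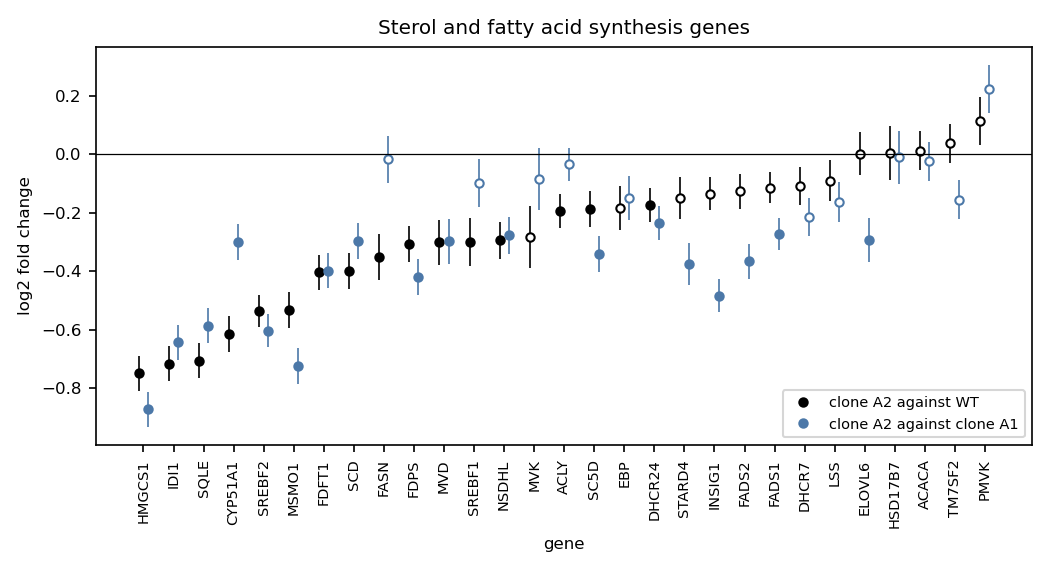
Log2 fold changes (vertical axis) of 29 of the 31 sterol and fatty acid synthesis genes in clone A2, against WT and against clone A1. Bars are standard errors and filled points passed the edgeR test; 16 points against WT and 18 against clone A1 are filled, all below 0.

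Zinc finger genes of chromosome 19 were among the largest changes in both directions. Most code for KRAB zinc finger proteins, DNA-binding repressors that lie in large clusters and silence transposable elements and other targets. Of 202 such genes, 38 rose (18.8%, against 9.75% of all genes) and 18 fell (8.91%, against 11.4%), with a median of −0.01, against a median of −0.16 over all chromosome 19 genes. Without clone A2 of experiment 16, 23 rose and 9 fell; 11 fell without clone A2 of experiment 15 and 9 without WT of experiment 15. Against clone A1, 21 of the 202 were higher and 4 lower, where 2.00% and 4.16% of all genes passed.

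ZNF682 (chr19:19995131-20039505, minus strand) had 2.29 and 2.36 CPM in WT, 3.31 and 2.94 CPM in clone A1 and 0.292 and 0.215 CPM in clone A2 (log2 fold change −3.20, SE 0.29, edgeR adjusted p = 2.84e-06). ZNF577 (chr19:51804442-51887951, minus strand) had 2.92 and 3.24 CPM, 3.79 and 3.37 CPM and 0.516 and 0.586 CPM in the same order (log2 fold change −2.48, SE 0.23, edgeR adjusted p = 3.34e-06). Both were near the floor of detection in clone A2 and level in the other groups, and in experiments 10 and 11 WT had 2.71 and 2.67 CPM for ZNF682 and 4.099 and 3.61 CPM for ZNF577. ZNF649 fell by 1.67 on the log2 scale.

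In the other direction, ZNF528 (chr19:52397849-52418401) had 1.31 and 1.25 CPM in WT, 2.33 and 1.95 CPM in clone A1 and 4.799 and 4.06 CPM in clone A2 (log2 fold change 1.79, SE 0.20, edgeR adjusted p = 1.66e-05). ZNF880, its neighbour, had 0.756 and 0.916 CPM, 0.822 and 0.574 CPM and 2.11 and 1.95 CPM (log2 fold change 1.26, SE 0.27, edgeR adjusted p = 0.00324). The antisense gene ZNF528-AS1 overlaps ZNF880, and the strand setting of the counting is not given in the sources used here. WT of experiments 10 and 11 was lower still, with 0.412 and 0.306 CPM for ZNF528 and 0.152 and 0.245 CPM for ZNF880. ZNF91, a large repressor of SVA retroelements, rose from 0.907 and 1.27 CPM to 4.35 and 4.82 CPM (log2 fold change 2.05, SE 0.21, edgeR adjusted p = 7.62e-06). ZNF429 rose by 1.77, ZNF442 by 1.69, ZNF808 by 1.63 and ZNF726 by 1.19. All of these were low in level, under 10 CPM in each library of the fit.

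The promoters of 2 genes that fell and of 2 neighbours that rose, all chosen after their values were seen, are set side by side. Each is the 250 bases before a RefSeq start (GRCh38.p14). CG dinucleotides, the sites at which mammalian DNA is methylated, are in capitals. The ZNF682 stretch is chr19:20039506-20039755 (minus strand), ZNF577 chr19:51887952-51888201 (minus), ZNF528 chr19:52397599-52397848 (plus) and ZNF880 chr19:52369673-52369922 (plus). The ZNF880 stretch precedes a start inside the listed span of that gene (chr19:52366858-52397666), while the others border the span of theirs.
ZNF682: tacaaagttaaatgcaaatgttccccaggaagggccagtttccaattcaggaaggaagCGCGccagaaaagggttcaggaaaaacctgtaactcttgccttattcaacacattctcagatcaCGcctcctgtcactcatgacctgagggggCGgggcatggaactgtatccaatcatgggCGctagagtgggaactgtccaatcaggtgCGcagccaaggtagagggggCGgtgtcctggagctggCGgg
ZNF577: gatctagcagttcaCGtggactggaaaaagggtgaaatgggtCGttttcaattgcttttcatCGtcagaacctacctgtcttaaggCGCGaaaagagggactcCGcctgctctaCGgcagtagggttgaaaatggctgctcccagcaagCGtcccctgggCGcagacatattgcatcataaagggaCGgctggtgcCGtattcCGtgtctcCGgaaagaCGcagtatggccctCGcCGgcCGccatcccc
ZNF528: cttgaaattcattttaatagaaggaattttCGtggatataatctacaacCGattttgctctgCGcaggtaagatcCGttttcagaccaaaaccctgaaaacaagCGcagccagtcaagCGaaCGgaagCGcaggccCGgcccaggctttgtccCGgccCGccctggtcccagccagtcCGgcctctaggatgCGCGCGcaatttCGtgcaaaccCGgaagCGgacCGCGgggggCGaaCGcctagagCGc
ZNF880: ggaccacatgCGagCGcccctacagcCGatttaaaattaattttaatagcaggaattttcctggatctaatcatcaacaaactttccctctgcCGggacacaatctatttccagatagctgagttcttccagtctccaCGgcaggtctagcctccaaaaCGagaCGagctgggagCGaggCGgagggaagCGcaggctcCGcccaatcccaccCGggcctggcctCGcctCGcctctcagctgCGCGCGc
They hold 8, 17, 23 and 17 CG sites, against a median of 20 over 16748 promoters and of 17 over 229 promoters of the chromosome 19 zinc finger genes. Methylation was not measured here.

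Genes of the cytosolic ribosome were lower as a group by a small amount. Ribosomal protein genes, among the most abundant of any cell, are made in step with growth. Of 82, 38 fell and 1 rose against WT (46.3% lower, against 11.4% of all genes), with a median of −0.17, and the clone A2 libraries lay below both WT libraries for 60, against 29.7% of all genes. Without clone A2 of experiment 16, 20 fell, and without WT of experiment 15, 17. Beside RPL4 and RPL13A, RPL28 fell from 639 and 615 CPM to 456 and 404 CPM (log2 fold change −0.55, SE 0.07, edgeR adjusted p = 3.66e-05). Against clone A1, 2 of the 82 were lower and none higher by edgeR or DESeq2 (12 and none at an unadjusted p under 0.05), and clone A1 had a median of −0.10 against the same WT libraries. Of 77 mitochondrial ribosomal protein genes, 5 fell and 3 rose. Of 79 nuclear genes of oxidative phosphorylation, 10 fell and 1 rose (4 fell without clone A2 of experiment 16 or WT of experiment 15).

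For the smaller lists that follow, beginning with genes of cell identity and matrix, the shares over all genes were 9.75% called higher and 11.4% called lower, and no difference from these shares was tested. Of 14 basal and mesenchymal genes, 4 fell and 1 rose. SNAI2, a repressor of epithelial genes, had 31.7 and 29.8 CPM in WT, 7.15 and 6.56 CPM in clone A1 and 12.7 and 12.7 CPM in clone A2 (log2 fold change −1.28, SE 0.09, edgeR adjusted p = 2.26e-07). SPARC, a matricellular protein, had 7.21 and 7.095 CPM, 0.411 and 0.505 CPM and 3.63 and 2.71 CPM (log2 fold change −1.18, SE 0.17, edgeR adjusted p = 0.000159). For both genes clone A2 lay between clone A1 and WT, above clone A1 by 0.88 and 2.78 on the log2 scale (edgeR adjusted p = 3.06e-05 and 3.54e-06); with all 10 libraries the SNAI2 difference from clone A1 was −1.05 and did not pass. In experiments 10 and 11 clone A1 had 43.2 and 47.7 CPM of SNAI2 and 0.2902 and 0.696 CPM of SPARC. CDH3, placental cadherin, fell by 1.63, and FN1, fibronectin, rose from 163 and 169 CPM to 223 and 231 CPM (log2 fold change 0.45, SE 0.06, edgeR adjusted p = 5.32e-05).

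Of 16 luminal epithelial genes, 3 fell and 1 rose. KRT8, a simple epithelial keratin, fell from 6.86 and 7.74 CPM to 4.37 and 3.104 CPM (log2 fold change −0.98, SE 0.17, edgeR adjusted p = 0.000664), and TFAP2C, a transcription factor of luminal cells, from 15.8 and 14.3 CPM to 8.701 and 9.02 CPM (log2 fold change −0.76, SE 0.10, edgeR adjusted p = 6.52e-05). Of 61 collagen, laminin and integrin genes, 8 rose and 10 fell (5 rose without WT of experiment 15, and 6 fell without clone A2 of experiment 16). COL4A3, a chain of basement membrane collagen, rose from 3.48 and 2.92 CPM to 6.57 and 6.31 CPM (log2 fold change 1.01, SE 0.14, edgeR adjusted p = 0.000138), while COL3A1 fell as given above. Of 33 clustered protocadherins, 4 rose and 3 fell. Of 22 receptor tyrosine kinase and hormone receptor genes, 4 rose, among them MET (46.6 and 47.3 CPM in WT, 67.4 and 71.1 CPM in clone A2) and ERBB4 (10.3 and 10.3 CPM and 14.9 and 16.2 CPM), and 1 fell, GHR; 2 rose without WT of experiment 15.

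Stress and chaperone genes were split. Of 14 heat shock protein genes, 3 rose and 4 fell (1 fell without clone A2 of experiment 16, and 2 without either WT library). HSPA4L, an HSP110 chaperone, rose by 0.41 on the log2 scale, and HSPA1A and HSPA1B rose by 0.38 and 0.35, whereas DNAJB1, the cochaperone that works with them, fell by 0.32 (edgeR adjusted p = 0.0011). Of 20 ATF4 targets 7 rose and 2 fell, ATF4 itself being 1 of the latter (4 rose without clone A2 of experiment 16). SLC7A11, the cystine importer, rose from 12.5 and 15.7 CPM to 21.7 and 23.99 CPM (log2 fold change 0.69, SE 0.10, edgeR adjusted p = 0.000181). Of 17 chaperones and folding enzymes of the endoplasmic reticulum, 4 rose and 3 fell, 2 of the 3 on chromosome 22 (2 rose without WT of experiment 15). PDIA4, a disulfide isomerase, rose by 0.45 and HERPUD1, a gene of protein degradation at that membrane, by 0.46 (edgeR adjusted p = 3.60e-05 and 0.000957).

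Of 33 glutathione and thioredoxin genes, 12 fell and 2 rose, with a median of −0.08. Since 5 of the 33 lie on chromosome 22, the count outside it was 9 lower and 2 higher, with a median of −0.02. MGST1, a microsomal glutathione transferase, had 12.1 and 13.9 CPM in WT, 4.98 and 5.14 CPM in clone A1 and 4.06 and 3.57 CPM in clone A2 (log2 fold change −1.78, SE 0.13, edgeR adjusted p = 3.98e-07). PRDX6, a peroxiredoxin, fell from 338 and 336 CPM to 259 and 256 CPM (log2 fold change −0.39, SE 0.05, edgeR adjusted p = 0.000115), and GPX4, which reduces lipid peroxides, from 318 and 293 CPM to 236 and 225 CPM (log2 fold change −0.41, SE 0.07, edgeR adjusted p = 0.000522). Of the 2 that rose, 1 passed without clone A2 of experiment 16 and none without any other single library of clone A2 or WT.

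Of 26 hypoxia genes, 8 rose and 4 fell, with a median of 0.14 (4 rose without clone A2 of experiment 16 and 5 without WT of experiment 16). HILPDA, a lipid droplet protein induced by hypoxia, rose from 71.9 and 67.3 CPM to 119 and 129 CPM (log2 fold change 0.83, SE 0.06, edgeR adjusted p = 9.26e-07), and clone A1 had 125 and 122 CPM. BNIP3, a mitophagy receptor, rose by 0.38 and the glucose transporter SLC2A1 by 0.31. SLC2A3, the other glucose transporter of the list, fell from 36.1 and 35.2 CPM to 16.9 and 17.4 CPM (log2 fold change −1.06, SE 0.09, edgeR adjusted p = 2.76e-06). Against clone A1, 4 of the 26 were lower and none was higher by edgeR or DESeq2 (12 and none at an unadjusted p under 0.05). Of 17 glycolysis genes, 5 rose and 3 fell, GPI, the phosphoglucose isomerase, among the latter (log2 fold change −0.35, SE 0.06, edgeR adjusted p = 0.00053); without WT of experiment 15, 1 rose and 1 fell, and without clone A2 of experiment 16, 2 and 1.

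Of 23 enzymes of the dNTP pool, 3 rose and 3 fell, SAMHD1 being 1 of the latter, which is 13.04% in each direction and close to the shares of all genes; 1 rose without clone A2 of experiment 15 or either WT library, and 1 fell without clone A2 of experiment 16 or WT of experiment 15. UPP1, uridine phosphorylase, rose from 16.2 and 15.2 CPM to 20.97 and 21.3 CPM (log2 fold change 0.43, SE 0.10, edgeR adjusted p = 0.0051). Of 14 genes of nucleic acid sensing, 1 rose and 3 fell (1 fell without clone A2 of experiment 16 or WT of experiment 15). RIGI, a cytosolic RNA sensor, rose from 7.23 and 7.06 CPM to 10.1 and 9.76 CPM (log2 fold change 0.47, SE 0.11, edgeR adjusted p = 0.00585), while STING1, the adaptor of cytosolic DNA sensing, fell from 24.05 and 22.05 CPM to 17.2 and 17.8 CPM (log2 fold change −0.40, SE 0.08, edgeR adjusted p = 0.00275) and lay below clone A1, at 24.5 and 23.8 CPM, too. Of 31 interferon-stimulated genes, 2 rose and 3 fell (1 rose without clone A2 of experiment 16 or WT of experiment 16, and 1 fell without clone A2 of experiment 15 or WT of experiment 16). OAS3, which makes oligoadenylates upon binding double-stranded RNA, had 7.71 and 8.36 CPM in WT, 14.96 and 16.2 CPM in clone A1 and 15.3 and 15.6 CPM in clone A2 (log2 fold change 0.94, SE 0.10, edgeR adjusted p = 9.69e-06), so the KO clones had a like level there, while clone A1 had 4.04 and 5.85 CPM in experiments 10 and 11. Of 15 genes of MHC class I presentation, 2 rose and 1 fell, and HLA-B rose from 116 and 112 CPM to 157 and 149 CPM (log2 fold change 0.42, SE 0.06, edgeR adjusted p = 0.000183); without clone A2 of experiment 15 or WT of experiment 16, 1 rose, and without clone A2 of experiment 16 none fell.

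Of 34 proliferation genes, 8 fell and 1 rose, with a median of −0.07 (4 fell without WT of experiment 15). MCM7, of the same helicase as MCM5, fell from 806 and 798 CPM to 619 and 589.9 CPM (log2 fold change −0.41, SE 0.06, edgeR adjusted p = 9.26e-05), and the kinetochore gene CENPF by 0.39 on the log2 scale. Of 50 splicing factor genes, 11 fell and 1 rose (4 fell without clone A2 of experiment 16 and 5 without WT of experiment 15). HNRNPA1, an abundant splicing repressor, fell from 2229.8 and 2287 CPM to 1712 and 1699 CPM (log2 fold change −0.41, SE 0.06, edgeR adjusted p = 0.000336). Of 52 histone genes, 3 rose and 8 fell (3 fell without clone A2 of experiment 15, 4 without WT of experiment 15).

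In the other signaling lists the share of genes called was near or above that of all genes (21.2%), except for the targets of nuclear factor kappa B. Of 24 p53 targets, 3 rose and 5 fell, with CCNG1, cyclin G1, down by 0.29 on the log2 scale (1 rose and 3 fell without clone A2 of experiment 16, and 2 fell without WT of experiment 15). Of 16 targets of nuclear factor kappa B, 1 rose, TNFAIP2 (18.2 and 17.04 CPM in WT, 29.7 and 31.8 CPM in clone A2, log2 fold change 0.80, SE 0.09, edgeR adjusted p = 1.33e-05), and 1 fell, a call lost without either clone A2 library or WT of experiment 16. Of 28 AP-1 and immediate early genes, 5 rose and 1 fell (3 rose without either WT library). EGR1, an immediate early transcription factor, rose from 23.9 and 26.1 CPM to 48.8 and 41.3 CPM (log2 fold change 0.84, SE 0.09, edgeR adjusted p = 7.37e-06), and DUSP4, a phosphatase of MAP kinases, fell by 0.37. In experiments 10 and 11 WT stood at 76.7 and 84.1 CPM of EGR1, and in the fit with all 10 libraries its value was −0.23. Of 25 actin binding and YAP target genes, 6 fell and 1 rose, the filamin FLNA falling from 675 and 687 CPM to 558 and 512 CPM (log2 fold change −0.35, SE 0.07, edgeR adjusted p = 0.0017); 3 fell without clone A2 of experiment 16 or WT of experiment 16. Of 24 estrogen receptor targets, 3 rose and 2 fell, and 1 rose without any single library of clone A2 or WT.

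The study named several genes from these libraries, chosen on a set that includes them, so their direction here is no independent evidence. All 6 genes of its IL-12 family signaling group were lower in clone A2 than in WT, with a median of −0.31. CNN2, the actin-binding calponin 2, had 26.4 and 26.8 CPM in WT, 12.6 and 13.95 CPM in clone A1 and 13.1 and 10.3 CPM in clone A2 (log2 fold change −1.19, SE 0.11, edgeR adjusted p = 2.67e-06). GSTO1, an omega-class glutathione transferase, had 136 and 131 CPM, 111 and 99.9 CPM and 93.2 and 93.7 CPM (log2 fold change −0.52, SE 0.07, edgeR adjusted p = 4.79e-05). The Janus kinase TYK2 fell by 0.32 on the log2 scale, the ribosomal stalk gene RPLP0 by 0.31, the Arf GTPase ARF1 by 0.28 and TCP1, of the CCT chaperonin, by 0.22. TYK2 lost its call without clone A2 of experiment 16 (adjusted p = 0.068) and TCP1 without that library (0.11), WT of experiment 15 (0.061) or WT of experiment 16 (0.090), and none of the 6 passed between the clones by edgeR or DESeq2 (1 lower at an unadjusted p under 0.05).

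ARF1 lies in the window of chromosome 1 with a median of −0.30, and after the window medians were removed its value was 0.04. CNN2, TYK2 and GSTO1 lie in windows with medians of −0.16, and their values after removal were −1.03, −0.15 and −0.39. That of TYK2 no longer passed (limma adjusted p = 0.087). The window of GSTO1 was mixed, with 25 of 117 genes higher, 45 lower and quartiles of −0.34 and 0.21, so its median describes it poorly. TCP1 was the only called gene of 8 CCT subunits. CXCL8, the neutrophil chemokine interleukin 8 (IL8), had 2.29 and 2.09 CPM in WT and 3.21 and 3.05 CPM in clone A2, without overlap. It did not pass the test (log2 fold change 0.51, edgeR adjusted p = 0.0954), and clone A1 had 4.84 and 3.19 CPM. The study reported the opposite direction, lower IL8 in KO spheroids, by qRT-PCR, supernatant protein and, without significance, sequencing counts. In experiments 10 and 11 WT had 2.00 and 0.877 CPM and clone A1 1.10 and 0.479 CPM. IL12A, a subunit of interleukin 12, had 3.18 and 3.31 CPM and 2.92 and 3.03 CPM (edgeR adjusted p = 0.651).

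Clone A2 differed from clone A1, the other KO clone of the series, in 858 genes, 279 higher and 579 lower. Of the lower ones, 255 lay on chromosome 22. Outside chromosome 22 the count was 603, 279 higher and 324 lower. The count of 858 fell to 497 without clone A1 of experiment 15, 514 without clone A2 of experiment 15 and 557 without clone A2 of experiment 16. It was 216 with all 10 libraries and 1947 under a replicate block of the experiment number.

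Ranked by the smaller of the log2 fold changes against WT and clone A1, the genes furthest above both were PLA2G4B, ACAP1, ZNF808, AMN and ZNF880, and those furthest below were ZNF682, ESRP2, CPNE7, ZNF577 and PRAME. AMN, amnionless, a partner of the cubilin receptor, had 0.479 and 0.741 CPM in WT, 0.274 and 0.138 CPM in clone A1 and 1.59 and 1.44 CPM in clone A2 (log2 fold change 1.28, SE 0.32, edgeR adjusted p = 0.00925). Its difference from clone A1 was 2.86 (edgeR adjusted p = 0.000195), and the call against WT was lost without clone A2 of experiment 15 (adjusted p = 0.055) or WT of experiment 15 (0.078).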

How the data were processed

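Polyadenylated RNA of spheroids was sequenced in 10 libraries with a stranded kit, and 4 are compared here. Per the labels, the authors aligned reads to GRCh38 with HISAT2, and StringTie is named among the tools. The authors deposited 1 whole read count for each NCBI gene identifier and library, without normalization and with genes holding a 0 left out (lowest count 1); strand setting and counting program are not given in the sources used here. Symbols and positions came from the NCBI gene table of GRCh38.p14 (13885 of 13920 genes, the other 35 by identifier).

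Counts were tested with edgeR 4.0.16 (TMM, robust quasi-likelihood) in R 4.3.3, in 1 fit of the 6 libraries of experiments 15 and 16 with 3 groups and 3 residual degrees of freedom. P-values were adjusted over all genes (Benjamini-Hochberg, 0.05). CPM used TMM factors of all 10 libraries, and log2 CPM a prior count of 2. Alternatives used DESeq2 1.42.0 and limma 3.58.1, other scaling, filters, libraries and windows, the experiment number as a block, and each library left out. Sequences are from RefSeq (11366 genes had a promoter entry) and, for the exon, from hg38 with GENCODE.

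The named genes are SAMHD1, in each direction the 12 largest fold changes (mean of at least 1 CPM, no overlap), the 5 largest CPM differences and the 5 furthest from both references, 5 chromosome 22 genes of lowest p, those the study names, and from each list those of lowest p or defining it; INSIG1, FASN, RIBC2, LIF and further chromosome 22 genes were chosen after their values were seen. Members and lists were chosen with earlier results of these data known. Some genes the rule names are not reported here.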

Additional observations from a re-analysis of the deposited data

Results flagged for a closer look

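The direct test between the KO clones tells where the effects of clones A1 and A2 against the same WT libraries differ, and it called 858 genes. The values below are log2 differences of clone A2 minus clone A1 that passed it (edgeR adjusted p under 0.05). SAMHD1 was higher in clone A2 by 1.79, SPARC by 2.78 and SNAI2 by 0.88, and FN1 by 0.25. Also higher were PLA2G4B at 5.13, AMN at 2.86, ACAP1 at 1.66, MACROD2 at 1.03 and BEST1 at 0.64. The FN1 call was lost without clone A1 of experiment 15 or clone A2 of experiment 16. HSPA1A differed by 0.42 and HSPA1B by 0.42.

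Zinc finger genes differed in both directions, with ZNF808 at 1.55, ZNF880 at 1.53, ZNF726 at 1.05, ZNF429 at 1.05, ZNF528 at 1.04 and ZNF91 at 0.69 on the higher side. ZNF682 at −3.63, ZNF577 at −2.69 and ZNF649 at −1.52 were on the lower side. Lower in clone A2 too were CPNE7 at −3.30, ESRP2 at −3.02, GHR at −1.995, TMEM132B at −1.44, NAP1L3 at −1.17, SLC2A3 at −0.77, COX3 at −0.52, TFAP2C at −0.50 and STING1 at −0.47. The COX3 value was −0.30 without clone A1 of experiment 15, in which mitochondrial genes took 13.9% of the counts against 10.7% in experiment 16, and its call was lost without clone A2 of experiment 16. ESRP2 stood at −4.53 without clone A2 of experiment 16. ZNF808 stood at 2.34 without clone A1 of experiment 15 and at 1.04 without clone A1 of experiment 16, where its call was lost, as it was without clone A2 of experiment 15. The calls of ZNF429 and NAP1L3 were lost without any 1 of the 4 clone libraries, and that of ZNF91 without any except clone A1 of experiment 16.

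On chromosome 22 the differences were −2.28 for PRAME, −2.05 for SCUBE1, −0.97 for TBX1, −0.92 for FAM118A, −0.70 for EIF3L, −0.65 for ATXN10, −0.64 for SMARCB1, −0.62 for ST13, −0.61 for DDX17, −0.60 for SREBF2, −0.52 for XRCC6, −0.51 for MCM5, −0.45 for ATF4 and −0.27 for RPL3, whose call was lost without any 1 of these libraries except clone A1 of experiment 16. Sterol genes on other chromosomes differed by −0.87 for HMGCS1, −0.73 for MSMO1, −0.64 for IDI1, −0.59 for SQLE, −0.48 for INSIG1 and −0.30 for CYP51A1.

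In libraries outside the comparison, PLA2G4B reached 3.45 CPM in WT of experiment 11 and 9.16 CPM in clone A1 of experiment 10, more than 10 times the level of either WT library of experiments 15 and 16.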

How the results depend on the processing

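Of 154 gene values, all 154 kept direction and call with RLE scaling, filterByExpr and a mean count of at least 10, 152 with limma and 150 with DESeq2, which called 2690 genes in all, 2657 of them shared. Adding experiments 10 and 11 (all 10 libraries) cost 92 of them their call and left 308 genes against WT (52 higher, 256 lower), 147 outside chromosome 22 and 216 against clone A1; the chromosome 22 median was −0.52 and the SAMHD1 value −1.30 without passing (adjusted p = 0.17). The sign turned there for INSIG1 (0.21), EGR1 (−0.23) and SNAI2 against clone A1 (−1.05). The cause was not tested. With window medians removed, 535 genes were called against clone A1, and the sign turned for ARF1 (0.0443), RPL3 (0.11, and 0.24 against clone A1), SREBF2 (0.0323), ATF4 (0.11, and 0.0485 against clone A1) and XRCC6 against clone A1 (0.0185), which lie in shifted windows; 19 further gene values lost their call. Without chromosome 22 genes, 453 were called against clone A1. Windows of 10 Mb gave 45 shifted regions.

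Leaving out 1 library gave 1768 to 3205 genes against WT, 1550 to 2940 outside chromosome 22 and 497 to 932 against clone A1, a chromosome 22 median of −0.53 to −0.46, a SAMHD1 value of −1.40 to −1.18 and 20 to 30 regions. The experiment number as a replicate block gave 4511 genes against WT (4245 outside chromosome 22) with 6 libraries and 5597 (5322 outside chromosome 22) with 4. Against clone A1 the block gave 1947 genes with 6 libraries. The correlation over genes of the difference between the experiments in clone A2 and in WT was 0.15. Resting on a single difference per group, it cannot exclude that the experiment numbers pair the libraries. The main fit did not use them as pairs. With 2 libraries a side and 3 residual degrees of freedom, small differences rest on a spread shared across genes.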
